A study of Mus musculus with 10 samples.

Results

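Messenger RNA of leptotene/zygotene spermatocytes was compared with that of whole testis on microarrays. The leptotene/zygotene samples were fraction 5 of a Percoll density gradient of dissociated testes from 12-day-old C57BL/6 males, and the whole testis samples came from 15-day-old C57BL/6 males. Samples were taken by their titles, 4 of the 10 in the series, 2 per group. The samples numbered 1 were run on one array design and those numbered 2 on a companion design with other probe sets, so each group had 1 array per design and a gene was read from 1 array per group. Spermatogonia (fraction 2, day 8), pachytene spermatocytes (fraction 8, day 15) and a pool of 11 somatic tissues (day 15), called the somatic mix below, were the remaining groups and are used here only beside these. Age, fractionation and cell makeup differ together between the groups compared and cannot be told apart. The labels repeat the dissociation protocol for every sample, so they do not settle whether the whole testes were dissociated before lysis.

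In the first wave of spermatogenesis, germ cells of a young male enter meiosis nearly in step. In leptotene the duplicated chromosomes condense along an axis of cohesin and HORMA-domain proteins, and programmed DNA breaks are made. In zygotene, homologous chromosomes begin to be joined by the synaptonemal complex while the breaks are processed by strand-exchange proteins. In the pachytene stage that follows, pairing is complete and a large set of genes for later sperm functions is switched on. A testis of day 15 already holds pachytene cells besides earlier germ cells, Sertoli cells in the tubules and Leydig, peritubular, vascular and immune cells around them.

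Values are scaled signals per probe set, and a difference is the log2 signal of leptotene/zygotene minus that of whole testis. Signals below a floor (87.4 on the first design, 47.0 on the second) were set to it, and a fold against a group at the floor is a lower bound, written "at least". Of 18193 genes read, 13816 were above the floor in at least 1 of these groups, 11354 in both. A difference of at least 4-fold was taken as a call, and only genes past it are said to have risen or fallen. There were 165 genes at least 4-fold higher in leptotene/zygotene (1.19% of those measured) and 574 at least 4-fold lower (4.15%). At 2-fold the counts were 1246 higher (9.02%) and 1597 lower (11.6%), against 1754 higher and 1466 lower in values as deposited and 759 higher and 2156 lower with scaling to the shared probe sets. The median difference over all measured genes was 8.43e-05. With 1 array per group no p-value is given for a gene read this way, and the number of arrays limits the precision.

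The 100 probe sets placed on both designs measured the comparison again. Their differences had an error SD of 0.23 on the log2 scale and a 95% limit of 0.46, and 81.0% had the same direction on both designs. In 1430 genes covered by separate probe sets on each design, all above the floor, the error SD was 0.63 and the limit 1.24. In these genes the differences on the 2 designs correlated at 0.32, and 60.5% had the same direction. Among all 2547 genes with probe sets on both designs, including values set to the floor, 76 were past 4-fold on the first design. Of these, 55 had the same direction on the second and 17 were past 4-fold there. By limma across the 10 arrays, 39 of the 100 shared probe sets were higher (39.0%) and 9 lower (9.0%) in leptotene/zygotene at a Benjamini-Hochberg adjusted p under 0.05. With the arrays scaled to these probe sets themselves the split was even, with 25 higher and 25 lower. Pabpn1, a poly(A)-binding protein gene, was higher by 1.93 and 1.76 on the 2 designs, and Cdc42, a small GTPase gene, by 1.32 and 1.54. Dhrs1, a dehydrogenase gene, was lower, with differences of -1.48 and -1.37, and Nmt1, a protein myristoyltransferase gene, with -1.23 and -1.23. Over 2547 genes with probe sets on both designs, limma called 2 higher (0.0785%) and 2 lower (0.0785%), which are named below, and 187 had an unadjusted p under 0.05.

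Control probe sets and genes of other organs set the whole testis arrays apart, and these values stand beside every comparison below. The ratio of 3' to 5' signal of the Gapdh control was 1.07 and 1.12 in leptotene/zygotene on the 2 designs, against 4.33 and 3.75 in whole testis. That of the beta-actin control was 3.18 and 3.13 in leptotene/zygotene, against 5.22 and 6.57 in whole testis. The 18S ribosomal RNA control, read at its 3' end, had signals of 1801 and 1814 in leptotene/zygotene, against 176 and 154 in whole testis. A higher ratio means that less of the signal came from the 5' part of the transcript. The part of these differences in the results was not tested.

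Whole testis also held transcripts that mark other organs. All 14 genes of a list for the exocrine pancreas were above the floor in whole testis, where each was 4-fold brighter or more, and 1 of 14 was above it in leptotene/zygotene. Their summed signal was 599 in leptotene/zygotene, 38527 in whole testis and 227369 in the somatic mix, although pancreas is not among the 11 tissues named in that mix. Of 16 intestinal genes, 5 were above the floor in leptotene/zygotene and 14 in whole testis, with summed signals of 648 and 26813. Of 18 liver genes, 3 were above it in leptotene/zygotene and all 18 in whole testis, with summed signals of 1818 and 23856. The 14 skeletal muscle genes had summed signals of 990 in leptotene/zygotene and 6360 in whole testis, and all were above the floor in whole testis. Genes of brain (3 of 11), kidney (4 of 9), stomach (5 of 12), lung (5 of 8), heart (7 of 10) and skin (7 of 9) were above the floor less widely in whole testis. Of all 18193 genes read, 11354 were above it in both groups and 1703 in whole testis only, so such counts alone mark no organ. The heart list alone had a higher summed signal in leptotene/zygotene (5512) than in whole testis (4186), led by the cardiac troponin gene Tnni3 with 4357 in leptotene/zygotene and 2165 in whole testis.

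The fat and epididymis lists had higher summed signals in whole testis than in the somatic mix. The sum over 10 fat genes was 1837 in leptotene/zygotene, 15597 in whole testis and 9593 in the mix, and that over 9 epididymis genes 312 in leptotene/zygotene, 9143 in whole testis and 698 in the mix. Adipoq, the adipocyte hormone adiponectin, had a signal of 14.6 in leptotene/zygotene, 2982 in whole testis and 795 in the mix. Fabp4, the fatty acid binding protein of adipocytes, had 28.2 in leptotene/zygotene, 4366 in whole testis and 3449 in the mix. Defb42, a beta-defensin of the epididymis, had 54.3 in leptotene/zygotene, 3454 in whole testis and 128 in the mix. Members did not all follow. Cidea, a lipid droplet gene of the fat list, had 1571 in leptotene/zygotene, 342 in whole testis and 572 in the mix, and Ucp1, the uncoupling protein of brown fat, was below the floor in both testis samples, with 746 in the mix. The organ lists were drawn up after organ genes had been seen among the differences. In a bulk RNA, fewer cells of a type and less RNA per cell cannot be told apart.

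**Figure D1:**
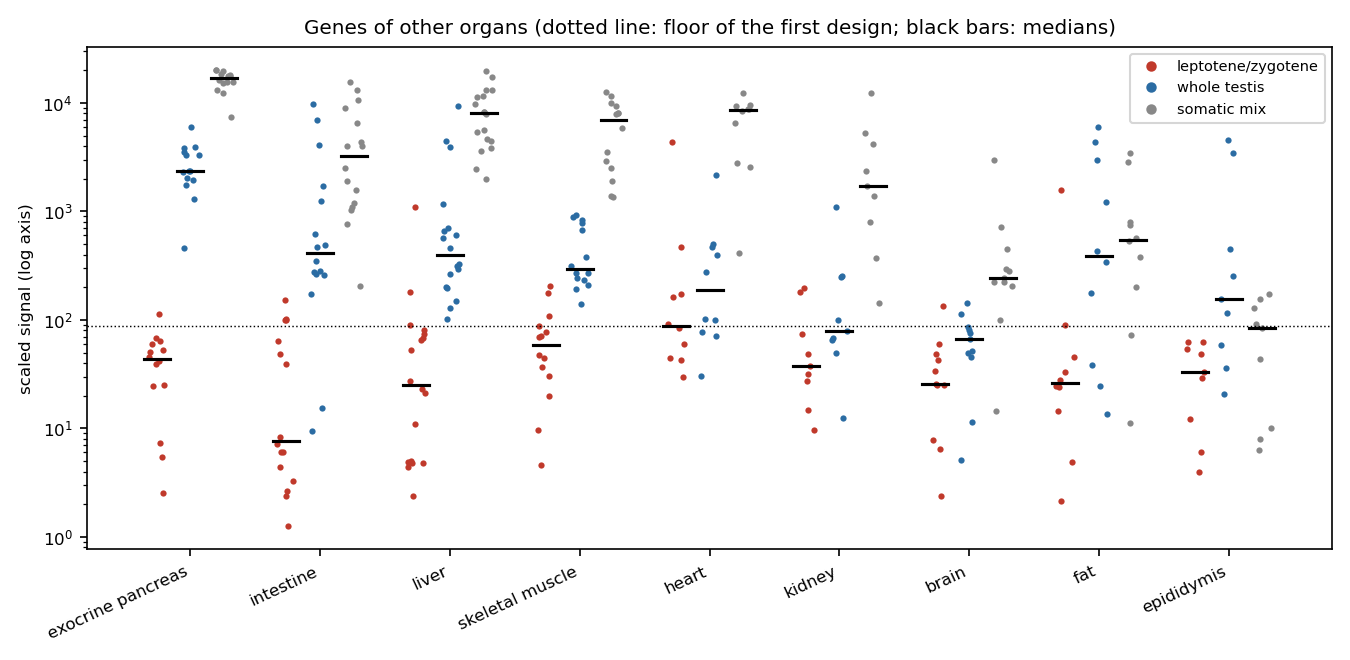
Scaled signal (log axis) of genes of 9 organs in leptotene/zygotene, whole testis and the somatic mix, 1 point per gene and 1 array per group, with black bars at medians. Pancreas, intestine, liver and muscle genes lie mostly above the floor in whole testis and mostly below it in leptotene/zygotene, and the summed signals of the fat and epididymis genes are highest in whole testis.

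The fraction was checked first against its 4 markers. Stra8, the retinoic acid target that opens the meiotic program, had a signal of 3295 in leptotene/zygotene and 1339 in whole testis. Kit, the stem cell factor receptor of differentiating spermatogonia, had 748 in leptotene/zygotene and 274 in whole testis. Dmc1, the meiotic recombinase, had 668 in leptotene/zygotene and 289 in whole testis. All 3 were thus more than 2-fold higher in leptotene/zygotene, with differences of 1.30, 1.45 and 1.21, and none reached 4-fold. The second probe set of Kit was below the floor in every group, and the mean difference over both probe sets was 0.72. Ldhc, the lactate dehydrogenase of later spermatocytes and sperm, fell to 1855 in leptotene/zygotene, against 16538 in whole testis, an 8.92-fold difference.

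These markers placed the fraction between spermatogonia and pachytene. Stra8, Kit and Dmc1 were each brighter in leptotene/zygotene than in any of the other 4 groups, and Stra8 had 2081 in spermatogonia and 376 in pachytene. Ldhc had 58.8 in spermatogonia, 1855 in leptotene/zygotene and 23494 in pachytene. The fraction also carried somatic transcripts at the level of the whole organ. Clu, a secreted Sertoli cell chaperone, had 12739 in leptotene/zygotene and 14076 in whole testis. Cyp17a1, which makes androgen precursors in Leydig cells, had 1838 in leptotene/zygotene and 1025 in whole testis. Acta2, smooth muscle actin of peritubular cells, had 6040.4 in leptotene/zygotene and 7457 in whole testis. Csf1r, a macrophage receptor, was lower on the probe set read, with 546 in leptotene/zygotene and 1487 in whole testis. Its other probe sets differed by -1.32 and by 0.05, the latter with 138 in leptotene/zygotene and 133 in whole testis. Pecam1, an endothelial adhesion gene, was below the floor in both.

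**Figure D2:**
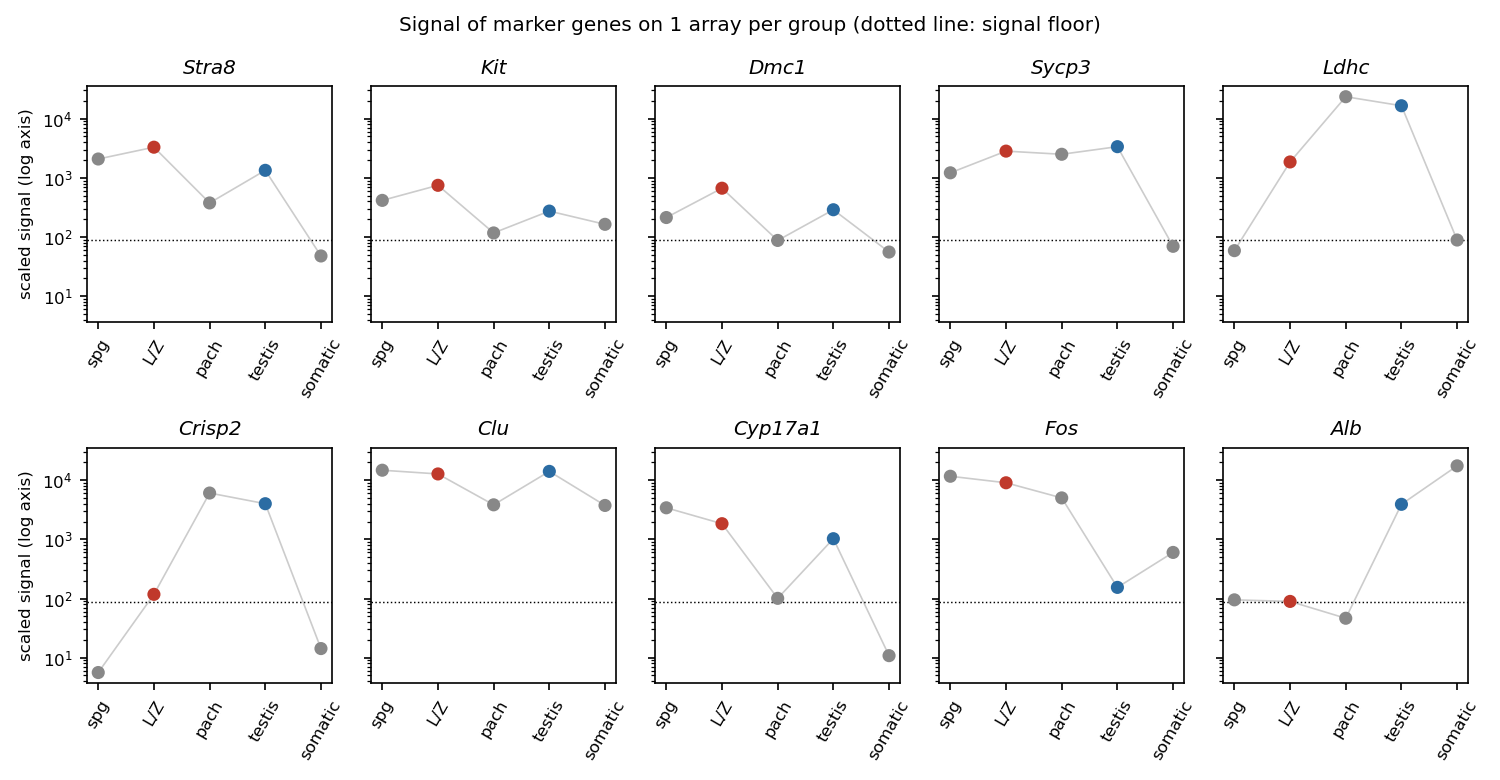
Scaled signal (log axis) of 10 genes on 1 array per group, from left to right spermatogonia (spg), leptotene/zygotene (L/Z), pachytene (pach), whole testis and the somatic mix. Stra8, Kit and Dmc1 peak in leptotene/zygotene, Ldhc and Crisp2 are far higher in pachytene and whole testis, and Fos is high in the 3 fractions and low in whole testis.

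No gene of the axis, the synaptonemal complex or recombination passed 4-fold. Of 11 synaptonemal complex and HORMA-domain genes 1 was 2-fold higher and 1 was 2-fold lower, with a median of -0.27. Among all measured genes 9.02% were 2-fold higher and 11.6% lower. Sycp3, the lateral element protein, had a signal of 2828 in leptotene/zygotene and 3363 in whole testis. Sycp1, the transverse filament that bridges the lateral elements, had 949 in leptotene/zygotene and 1675 in whole testis. The central element members split. Tex12 had 1339.8 in leptotene/zygotene and 772 in whole testis, and Syce2 had 5129.7 and 3813 in the same order of groups. Syce1, another central element gene, had 1439.5 in leptotene/zygotene and 3568 in whole testis. The axis protein gene Hormad1 had 205 in leptotene/zygotene and 300.2 in whole testis.

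The 31 measured genes of break formation and recombination went both ways, with 6 at least 2-fold higher, 5 at least 2-fold lower and a median of -0.21. The 2-fold shares over all measured genes were 9.02% higher and 11.6% lower. The higher side held genes of several steps. Rec114, a partner of the break machinery, had a signal of 738 in leptotene/zygotene and 216 in whole testis, a difference of 1.78. Mei1, another gene needed for breaks, had 385 in leptotene/zygotene and 159 in whole testis. Atm, the kinase that senses breaks and limits their number, had 668 in leptotene/zygotene and 243 in whole testis. Tex11, an X-linked crossover gene, had 641 in leptotene/zygotene and 268 in whole testis, and Rpa3, a subunit of the single-strand binding complex, was 2-fold higher as well (1.44).

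On the lower side, Spo11, whose product cuts the DNA, had a signal of 224 in leptotene/zygotene and 652 in whole testis (-1.54), with 107 in spermatogonia and 1362 in pachytene. Spo11 was therefore brightest in pachytene among the 3 fractions, unlike Rec114, which had 304 in spermatogonia and 129 in pachytene. Psmc3ip, the cofactor of Dmc1 strand exchange, had 876 in leptotene/zygotene and 2033 in whole testis. Meiob, a single-strand DNA binding protein of meiosis, had 277 in leptotene/zygotene and 736 in whole testis. Msh4, which stabilises crossover intermediates, had 103 in leptotene/zygotene and 213 in whole testis. Atr, the kinase that marks unpaired chromosomes, differed by -1.51, but a second probe set of this gene moved in the opposite direction.

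Cohesin and telomere genes were spread around zero as well. Of 15 cohesin genes, 3 were 2-fold higher, 1 was 2-fold lower and none passed 4-fold (median 0.11). Rec8, the meiotic kleisin subunit, had a signal of 269 in leptotene/zygotene and 116 in whole testis. Stag3, the meiosis-specific cohesin subunit, had 1420.3 in leptotene/zygotene and 2555 in whole testis, and Smc1b, its meiotic partner, had 755 and 1289.8 in the same order. Esco2, a cohesin acetyltransferase of S phase, had 239 in leptotene/zygotene and 63.1 in whole testis. Of 10 genes that tether telomeres to the nuclear envelope, 1 was 2-fold higher (Cdk2, 1.18) and 1 was 2-fold lower (Spdya, its activator, -1.38). Over all measured genes, 9.02% were 2-fold higher and 11.6% lower, near the shares of this telomere list.

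Genes of meiotic entry and of earlier germ cells leaned higher. Of 12 meiotic entry genes, 5 were at least 2-fold higher, none was 2-fold lower and none passed 4-fold (median 0.48). Besides Stra8, Kit and Rec8 these were Zglp1, a GATA-type factor of the oocyte program in females (1.92), and Rhox13, a homeobox gene of the X chromosome (1.40). Of 23 spermatogonial genes, 11 were 2-fold higher and 1 was 2-fold lower, with a median of 0.99. Such shares were 9.02% higher and 11.6% lower over all measured genes. Sall4, a zinc finger factor of progenitors, rose to 750.3 in leptotene/zygotene, against 185 in whole testis, while Taf4b, a germ cell subunit of the TFIID complex, to 852 in leptotene/zygotene, against 200.4. Egr3, which is also an immediate-early gene, was at least 5.68-fold higher. Uchl1, a spermatogonial deubiquitinase (1.97), Sox3 (1.98) and Sohlh1 (1.73), transcription factors of differentiating spermatogonia, lay just below the threshold. Cdh1, an epithelial cadherin, fell to 119 in leptotene/zygotene, against 755 in whole testis, with 1438 in the somatic mix.

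DNA replication genes leaned the same way. Of 35 measured, 29 were above zero, 6 were 2-fold higher, none was 2-fold lower and none passed 4-fold (median 0.34). Tk1, the thymidine kinase of S phase, had a signal of 415 in leptotene/zygotene and 110.2 in whole testis. Cdc6, which loads the replicative helicase, had 632 in leptotene/zygotene and 200.3 in whole testis, and the origin subunit Orc1 had 358 and 120.5 in the same order. Chromosome segregation genes had a median of -0.24 over 40 genes, with 4 at 2-fold higher and 5 at 2-fold lower. Over all measured genes these shares were 9.02% and 11.6%. Cenpa, the centromeric histone H3, had 1241 in leptotene/zygotene and 341 in whole testis. Ccna1, the cyclin A of late meiotic prophase, was at least 7.29-fold lower, with 637 in whole testis, and Aurkc, the meiotic Aurora kinase, fell to 123 in leptotene/zygotene, against 524 in whole testis.

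Promoters of these genes were searched for short motifs in windows from 250 bases before to 50 after the start of transcription, taken from RefSeq (GRCm38.p6) and read on both strands. The E2F motif TTCCCGC was in 13 of 30 replication genes with a window (43.3%) and 9 of 25 recombination genes (36.0%), against 9.04% of 11117 measured genes. It was also in 6 of 11 cohesin (54.5%), 4 of 11 synaptonemal complex (36.4%) and 2 of 11 meiotic entry genes (18.2%). Lower counts were 1 of 7 telomere genes (14.3%), 2 of 33 segregation genes (6.06%) and 0 of 18 spermatogonial genes. The motif CNCCTCAG, reported for STRA8, was in 5 of 11 synaptonemal complex genes (45.5%), against 11.2% of measured genes. It was in 2 of 25 recombination genes (8.0%), 1 of 11 cohesin genes and 1 of 11 meiotic entry genes (9.09% each), 2 of 30 replication genes (6.67%) and 4 of 7 telomere genes (57.1%). Among lists described below, the STRA8 motif was in 3 of 11 Leydig (27.3%), 5 of 20 piRNA (25.0%) and 7 of 34 immediate-early genes (20.6%), and in 0 of 35 flagellar genes. A match is a run of letters and not a binding site. The windows of Cdc6 (E2F motif in capitals, read from the opposite strand, chr11:98907901-98908200, plus strand) and Sycp1 (STRA8 motif in capitals, read from the opposite strand, chr3:102936051-102936350, minus strand) are shown as examples of these groups, 5′ to 3′.
Cdc6: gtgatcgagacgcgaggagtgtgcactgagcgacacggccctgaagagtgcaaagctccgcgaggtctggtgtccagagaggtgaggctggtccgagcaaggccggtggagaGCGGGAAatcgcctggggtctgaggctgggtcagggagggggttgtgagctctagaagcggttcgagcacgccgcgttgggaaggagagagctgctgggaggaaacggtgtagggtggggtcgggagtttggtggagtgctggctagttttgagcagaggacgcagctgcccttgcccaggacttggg
Sycp1: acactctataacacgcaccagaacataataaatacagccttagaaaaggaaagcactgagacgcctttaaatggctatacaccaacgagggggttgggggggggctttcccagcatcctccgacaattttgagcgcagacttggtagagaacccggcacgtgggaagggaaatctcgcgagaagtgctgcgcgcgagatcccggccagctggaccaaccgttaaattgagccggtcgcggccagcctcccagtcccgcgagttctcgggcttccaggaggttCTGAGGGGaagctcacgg

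The largest group of calls was made of genes of later germ cells, which were lower in leptotene/zygotene. Of the 574 genes that fell, 405 (70.6%) were at least 4-fold brighter in pachytene than in the somatic mix, against 12.5% of all measured genes. Of the remaining genes, 123 were at least 4-fold brighter in the somatic mix than in each of the 3 germ cell fractions (21.4%, against 4.22% of all), and 46 were in neither class. This class requires a low leptotene/zygotene signal, as a fall does, so its excess over all genes is partly set by the selection. With pachytene alone as the reference, the mix was at least 4-fold brighter in 128 of the 574 (22.3%), against 11.6% of all. Pachytene cells and whole testis were both of day 15.

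Of 28 measured pachytene spermatocyte genes, 21 fell and none rose, with a median of -2.82. Crisp2, a sperm protein of the acrosome and tail, had a signal of 118 in leptotene/zygotene and 4001 in whole testis, a 34.0-fold difference, with 6062 in pachytene. Spink2, an acrosomal protease inhibitor, fell to 145 in leptotene/zygotene, against 3378 in whole testis. Hspb9, a testis heat shock protein, was at least 52.6-fold lower, with 2471 in whole testis. Clgn, a chaperone of the spermatocyte endoplasmic reticulum, fell to 336 in leptotene/zygotene, against 4748 in whole testis, while the sperm membrane protein gene Adam2 to 172, against 2596 in whole testis. Slc25a31, the testis ADP/ATP carrier, did not follow, with 1048 in leptotene/zygotene and 669.8 in whole testis, and neither did Mybl1, the transcription factor A-MYB, with 143 and 126 in the same order.

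Several of these transcripts were low but not absent in the fraction. Ldhc, Fabp9, a testis fatty acid binding protein (1007 in leptotene/zygotene, 9298 in whole testis), and Rsph1, a radial spoke protein (2244 in leptotene/zygotene, 10061 in whole testis), lay well above the floor in leptotene/zygotene while at least 4-fold below whole testis. In spermatogonia the same 3 genes had 58.8, 34.8 and 365.

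Many genes of the flagellar axoneme fell. Of 36 measured, 22 fell and none rose (median -2.30). Tekt1, a filament protein of the axonemal doublets, fell to 98.8 in leptotene/zygotene, against 1726 in whole testis, while Tekt3 to 52.5, against 1128 in whole testis. Dnah8, an outer arm dynein heavy chain, fell to 472 in leptotene/zygotene, against 6476 in whole testis. Meig1, needed to build the tail, fell to 891 in leptotene/zygotene, against 6656 in whole testis. Drc1, of the dynein regulatory complex, was at least 8.7-fold lower. The intraflagellar transport genes moved less: Ift88 differed by -1.52, Ift81 by -0.92 and Ift20 by 0.30.

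Several other genes among the largest falls shared the pachytene pattern. Spink8, Defb42, Alb and Cela2a, also among the largest falls, did not, with 67.6, 46.8, 46.4 and 87.4 in pachytene. Eid3, a subunit of the SMC5/6 complex, had 71.2 in leptotene/zygotene, 3806 in whole testis and 9153 in pachytene. Cmtm2b, a testis chemokine-like transmembrane gene, had 94.7 in leptotene/zygotene, 3371 in whole testis and 11470.1 in pachytene. Its neighbour in name Cmtm2a was measured on both designs and fell by at least 4.08 on the first and by 5.02 on the second (log2 scale, limma adjusted p = 0.0235). Plaat5, a phospholipid-modifying enzyme (-5.20), and Marchf11, a membrane ubiquitin ligase (-4.96), were further genes with the pachytene pattern.

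The 22 genes of the piRNA pathway and germ granule had a median of -0.53, with 6 at 2-fold lower and 1 that fell. Over all measured genes 11.6% were 2-fold lower and 4.15% fell. Ddx25, a germ cell RNA helicase, fell to 601 in leptotene/zygotene, against 3449 in whole testis. Piwil1, the PIWI protein of pachytene piRNAs, had 427 in leptotene/zygotene and 1408 in whole testis, and Piwil2, which acts from earlier stages, had 1135 and 2605 in the same order. Ddx4, the helicase VASA, had 1304 in leptotene/zygotene and 1915 in whole testis.

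A list of gene copies, several of them autosomal retrogenes that stand in for X-linked parents during meiosis, had 7 of 18 that fell and none that rose (median -0.56). It also holds genes that are no such copy, among them the Y-linked Eif2s3y. Pgk2, the copy of the glycolytic gene Pgk1, was at least 6.87-fold lower, with 600.0 in whole testis. Pdha2, a subunit of pyruvate dehydrogenase, fell to 387 in leptotene/zygotene, against 2315 in whole testis, while Pabpc6, a poly(A)-binding protein gene whose parent is autosomal, to 53.1, against 1832 in whole testis. Prps1l1 was at least 42.3-fold lower and Gk2, the glycerol kinase copy, at least 30-fold lower. In the list of glycolysis and lactate genes, 7 of 24 fell. Besides Ldhc, Pgk2 and Pdha2 these were the phosphoglycerate mutase Pgam2 (at least 58.4-fold), the glucose transporter Slc2a3 (2.73 on the log2 scale), the phosphofructokinase Pfkp (2.91) and Ldha (2.00). Of 31 spermatid genes, 16 were below the floor in both groups, among them the protamine gene Prm1 and the transition protein gene Tnp1. Of the 15 measured, Zpbp, Zpbp2 and Catsper2 fell, by 3.27, 4.02 and 3.29 on the log2 scale.

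In the genes that fell, 10.6% of 452 promoter windows held the MYB motif GGCAGTT and 10.4% the RFX motif GTTGCCA, against 4.60% and 4.91% of 11117 measured genes. In the genes that rose, the shares over 130 windows were 3.85% and 1.54%. Within the flagellar list, 5 of 35 windows held the RFX motif and 4 the MYB motif. The windows of Tekt1 (RFX motif in capitals, chr11:72361833-72362132, minus strand) and Pgk2 (MYB motif in capitals, chr17:40208560-40208859, minus strand) show both motifs. The first starts 15 bases before the start of transcription and the second 146 bases before it.
Tekt1: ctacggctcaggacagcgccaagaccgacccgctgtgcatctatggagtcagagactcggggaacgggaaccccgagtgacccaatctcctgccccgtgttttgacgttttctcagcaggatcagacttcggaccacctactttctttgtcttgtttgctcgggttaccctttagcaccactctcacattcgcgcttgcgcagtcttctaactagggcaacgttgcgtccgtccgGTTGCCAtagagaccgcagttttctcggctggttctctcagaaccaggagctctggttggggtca
Pgk2: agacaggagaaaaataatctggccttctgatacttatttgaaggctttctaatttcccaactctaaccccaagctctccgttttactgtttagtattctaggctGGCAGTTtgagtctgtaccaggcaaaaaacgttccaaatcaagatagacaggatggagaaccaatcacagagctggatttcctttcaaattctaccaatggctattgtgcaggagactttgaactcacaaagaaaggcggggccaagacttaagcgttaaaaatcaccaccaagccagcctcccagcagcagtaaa

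**Figure D3:**
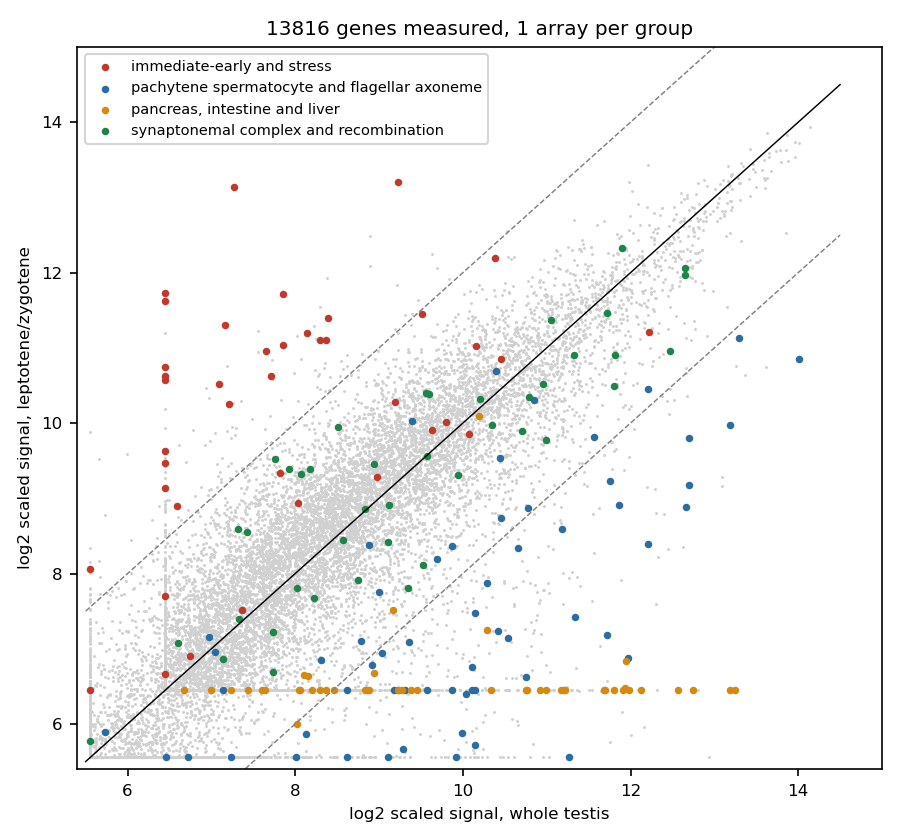
Log2 scaled signal in leptotene/zygotene (vertical) against whole testis (horizontal), 1 point per measured gene, with the diagonal at equal signal and dashed lines at 4-fold. Of 40 immediate-early genes 23 lie above the upper dashed line, with 21 of 28 pachytene, 22 of 36 flagellar, 14 of 14 pancreas, 10 of 16 intestinal and 7 of 18 liver genes at or below the lower one, and synaptonemal complex and recombination genes between them.

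The genes that rose were led by immediate-early genes, which respond within minutes to growth factors or stress. Of 40 measured members of that list, 23 rose and none fell, with a median of 2.71, and 28 were at least 2-fold higher. Fos, an AP-1 subunit, had a signal of 9032 in leptotene/zygotene and 154 in whole testis, a 58.6-fold difference and the largest among genes above the floor in both. Egr1, a zinc finger factor, had 9455 in leptotene/zygotene and 598 in whole testis. Ier2, an immediate-early regulator, had 2527 in leptotene/zygotene and 143 in whole testis. Zfp36, which destabilises inflammatory messenger RNA, had 3367 in leptotene/zygotene and 231 in whole testis.

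Against whole testis at the floor, Socs3, a brake on cytokine signalling, was at least 39-fold higher (3406 in leptotene/zygotene). Ier3 was at least 36-fold higher, Atf3, a stress-induced factor, at least 19.6-fold higher and Fosb, another AP-1 subunit, at least 18.1-fold higher. Among genes measured on both designs, Klf6, a Krüppel-like factor, was higher by at least 3.18 and at least 3.44 (log2 scale, limma adjusted p = 0.0235), and Cxcl1, a neutrophil chemokine, by at least 4.74 and by 3.46 (limma adjusted p = 0.0378). These were the genes that limma called higher. Ttr, a liver and choroid plexus transport protein, was the other gene besides Cmtm2a called lower, with differences of -3.01 and -4.61 that are bounds set by the floor (limma adjusted p = 0.0378). No gene was called when any 1 of the 4 arrays was left out. On the first design Klf6 was under 4-fold with the mean over its 5 probe sets (1.35) and with a floor at the 60th percentile (1.82), where Ttr was at -1.65. Its signal was 4.84 in leptotene/zygotene, 703 in whole testis and 13121 in the somatic mix on the first design.

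The neighbouring fractions were read for the same list. Its median against whole testis was 2.96 in spermatogonia and 0.71 in pachytene, comparisons that share the whole testis array with this one. Fos had 11645 in spermatogonia, 5015 in pachytene and 601 in the somatic mix. Not all members moved: Ccn2, a matrix-associated growth factor, had 1851 in leptotene/zygotene and 1406 in whole testis, and Dnajb1, a heat shock co-chaperone, was lower (-1.01).

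In the promoter windows of 34 list genes, a serum response element of the CArG type was found in 3 (8.82%), against 1.55% of measured genes, and the cAMP response element TGACGTCA in 2 (5.88%), against 3.38%. Zfp36 (CArG box in capitals, starting 58 bases before the start of transcription, chr7:28379179-28379478, minus strand) and Dusp1, a phosphatase that ends MAP kinase signalling (cAMP response element in capitals, starting 143 bases before it, chr17:26508423-26508722, minus strand), are shown because both rose, Dusp1 to 1464 in leptotene/zygotene, against 136 in whole testis.
Zfp36: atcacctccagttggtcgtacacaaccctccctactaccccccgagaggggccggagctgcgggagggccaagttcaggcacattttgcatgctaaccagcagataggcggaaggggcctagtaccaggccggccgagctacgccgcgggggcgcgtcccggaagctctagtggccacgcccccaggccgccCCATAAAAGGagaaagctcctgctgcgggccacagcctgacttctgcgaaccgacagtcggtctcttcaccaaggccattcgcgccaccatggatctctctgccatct
Dusp1: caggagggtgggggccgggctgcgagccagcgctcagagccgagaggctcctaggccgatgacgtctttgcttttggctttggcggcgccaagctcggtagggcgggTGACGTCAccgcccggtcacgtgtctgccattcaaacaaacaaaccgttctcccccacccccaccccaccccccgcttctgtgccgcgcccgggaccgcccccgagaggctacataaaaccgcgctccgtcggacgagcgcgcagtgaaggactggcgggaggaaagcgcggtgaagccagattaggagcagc

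Outside that list, the genes with the largest rises included other regulators. Csrnp1, a nuclear protein of the AXUD1 family, had 2397 in leptotene/zygotene and 189 in whole testis. Kdm6b, a histone H3 lysine demethylase, had 772 in leptotene/zygotene and 63.7 in whole testis, and Irf2bpl, a transcriptional regulator, had 736 and 50.5 in the same order. Klf9, another Krüppel-like factor, had 5741 in leptotene/zygotene and 474 in whole testis. Plod2, a collagen lysyl hydroxylase, had 1726 in leptotene/zygotene and 145 in whole testis. Brd2, a bromodomain reader of acetylated histones, had 3883 in leptotene/zygotene and 334 in whole testis. The mean over all probe sets of the gene was smaller, at 1.47 for Klf9 and 1.82 for Irf2bpl, both under 4-fold, and at 2.05 for Csrnp1, 2.31 for Kdm6b, 2.33 for Brd2 and 2.62 for Plod2. Plain probe sets alone gave 1.12 for Brd2, 0.61 for Klf9 and 1.58 for Irf2bpl.

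Elavl2, a neuronal-type RNA-binding protein also found in early germ cells, stood apart from the immediate-early genes. It was at least 17.9-fold higher, with 1565 in leptotene/zygotene, 552 in spermatogonia and signals below the floor in pachytene, whole testis and the somatic mix. Its mean over 5 probe sets was 1.79. Of the 165 genes that rose, 64 (38.8%) were at least 4-fold brighter in spermatogonia than in the somatic mix, against 4.13% of all measured genes. The immediate-early list holds 23 of the 165, and members such as Fos (11645 in spermatogonia, 601 in the mix) also meet this rule. How many of the 64 are on that list was not counted.

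Among somatic cells of the testis, Sertoli genes leaned higher. Of 30 measured, 9 were 2-fold higher, none was 2-fold lower and 1 rose, with a median of 0.49, against -0.17 on the second design only. Among all measured genes 9.02% were 2-fold higher and 11.6% lower. Inhbb, an inhibin and activin subunit, had a signal of 1845 in leptotene/zygotene and 576 in whole testis. Cldn11, the tight junction claudin of Sertoli cells, had 1599.7 in leptotene/zygotene and 407 in whole testis, and Wt1, the Wilms tumour factor, had 1090.1 and 512 in the same order. Sox9, the factor that specifies Sertoli cells, was at least 8.48-fold higher on the first design, but its probe set on the second, near the floor, differed by -0.17.

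Leydig genes had a median of 0.35 over 16, with 1 that rose, Hsd17b3, the last enzyme of testosterone synthesis (at least 5.71-fold, with 499 in leptotene/zygotene). Cholesterol synthesis genes, which feed steroid production, had 2 of 20 that rose, the regulator Insig1 (2.56) and the sterol carrier Stard4 (2.06), and 6 that were 2-fold higher. Peritubular smooth muscle genes had a median of -0.32 over 16, with 2 at 2-fold higher, Mylk (1.67) and Myl9 (1.10), and 4 at 2-fold lower, led by Actg2 (-1.88). Macrophage genes had a median of -0.34 over 24, with 6 at 2-fold lower, and the Fc receptor gene Fcgr3 fell to 121 in leptotene/zygotene, against 682 in whole testis. At 2-fold, 9.02% of all measured genes were higher and 11.6% lower. Collagen and matrix genes (median -0.13 over 31) and endothelial genes (0.07 over 14) stood near zero. Hemoglobin genes were below the floor in both.

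The junction list divided by gene. Of 27 genes, 7 fell and none rose, with a median of 0.06. Those that fell were Krt8 (at least 26.9-fold), which pairs with the keratin Krt18 (at least 14.1-fold), the desmosomal genes Dsp (at least 8.75-fold) and Dsg2 (at least 4.15-fold), the claudin Cldn3 (at least 7.89-fold), Cdh1 and the nectin Nectin3 (2.28 on the log2 scale). Krt8 had 56.6 in leptotene/zygotene, 2353 in whole testis and 7828 in the somatic mix. Nectin3 had 473 in leptotene/zygotene, 2305 in whole testis and 4396 in pachytene.

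The brightest genes that fell against leptotene/zygotene at the floor were those of the organs described first. Apoa4, an intestinal apolipoprotein, was at least 111-fold lower, Apoa1, of liver and intestine, at least 107-fold, and the fatty acid binding proteins Fabp1 and Fabp2 at least 81.6-fold and at least 78.8-fold. Pnliprp1, a pancreatic lipase-related protein, was at least 69.3-fold lower, and Car3, a carbonic anhydrase of fat and muscle, at least 68.6-fold. Above the floor in both groups, Spink8, a protease inhibitor of the epididymis, had the largest fall, to 62.2 in leptotene/zygotene, against 4597 in whole testis. Alb, serum albumin, had 89.3 in leptotene/zygotene and 3907 in whole testis, and the elastase Cela2a had 114 and 3942 in the same order.

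**Figure D4:**
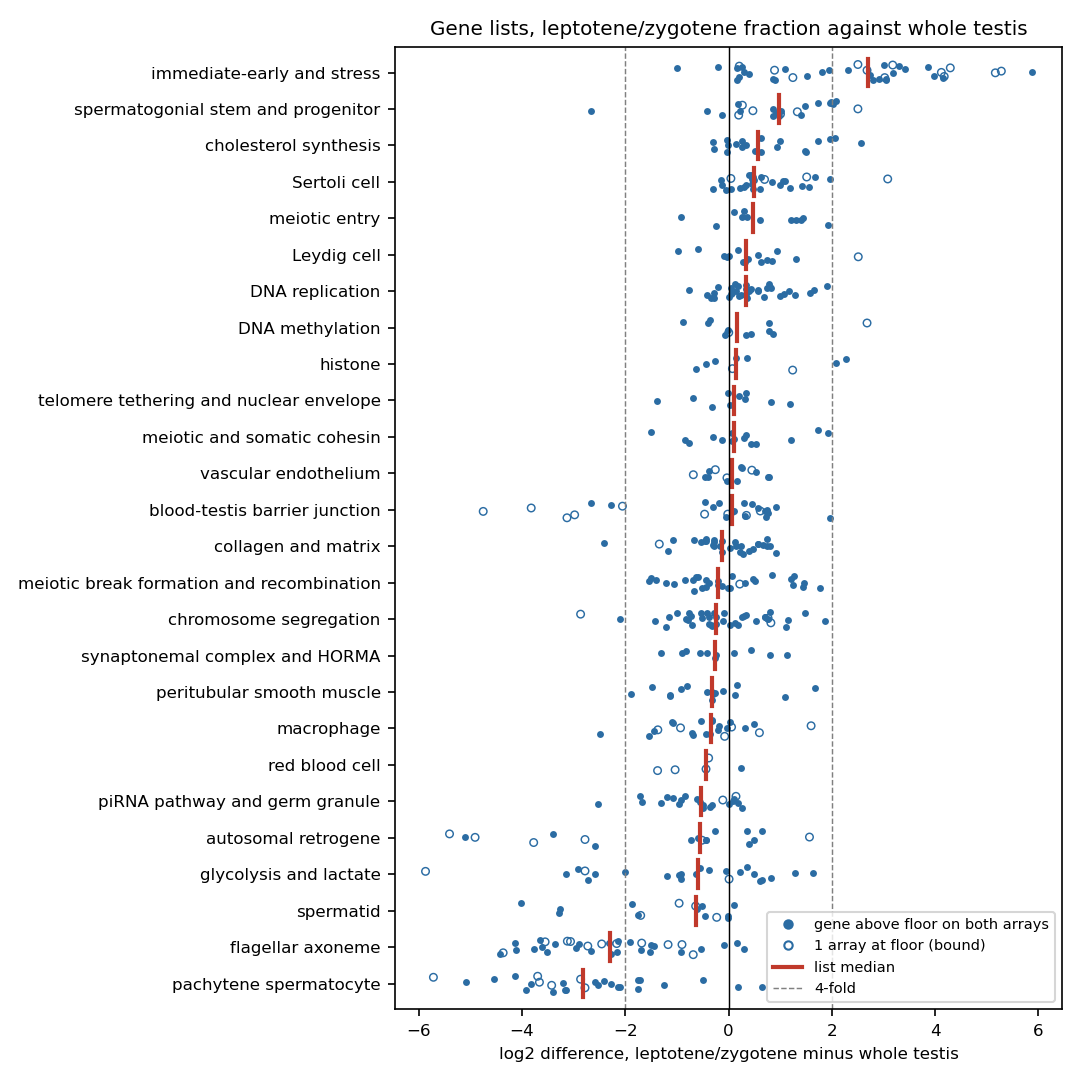
Log2 difference of leptotene/zygotene minus whole testis for members of 26 gene lists, 1 point per gene, with open points where 1 array was at the floor, red bars at list medians and dashed lines at 4-fold. The immediate-early list has its median at 2.71, the flagellar list at -2.30 and the pachytene list at -2.82, and the meiotic lists lie near zero.

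Against whole testis, X-linked genes leaned higher in the fraction than autosomal genes did. The median difference was 0.48 over 453 X-linked genes and -0.01 over 13265 autosomal genes, and single autosomes, 19 in all, had medians between -0.08 and 0.10. At 2-fold, 21.9% of X-linked genes were higher and 3.75% lower, against 8.63% and 11.8% of autosomal genes. At 4-fold, 8 X-linked genes rose, among them Mid1, a microtubule-associated ubiquitin ligase (349.7 in leptotene/zygotene, 66.1 in whole testis), Cited1, a transcriptional coregulator (4262 in leptotene/zygotene, 828 in whole testis), and Hs6st2, a heparan sulfotransferase (710.5 in leptotene/zygotene, 149.9 in whole testis). The 2 that fell were Adgrg2, a receptor of the epididymal duct, and S100g, an intestinal calcium binding protein, both below the floor in leptotene/zygotene. In pachytene cells the sex chromosomes are known to be silenced. The X-linked median minus the autosomal one, against the same whole testis array, was 0.53 in spermatogonia, 0.49 in leptotene/zygotene and -0.94 in pachytene.

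**Figure D5:**
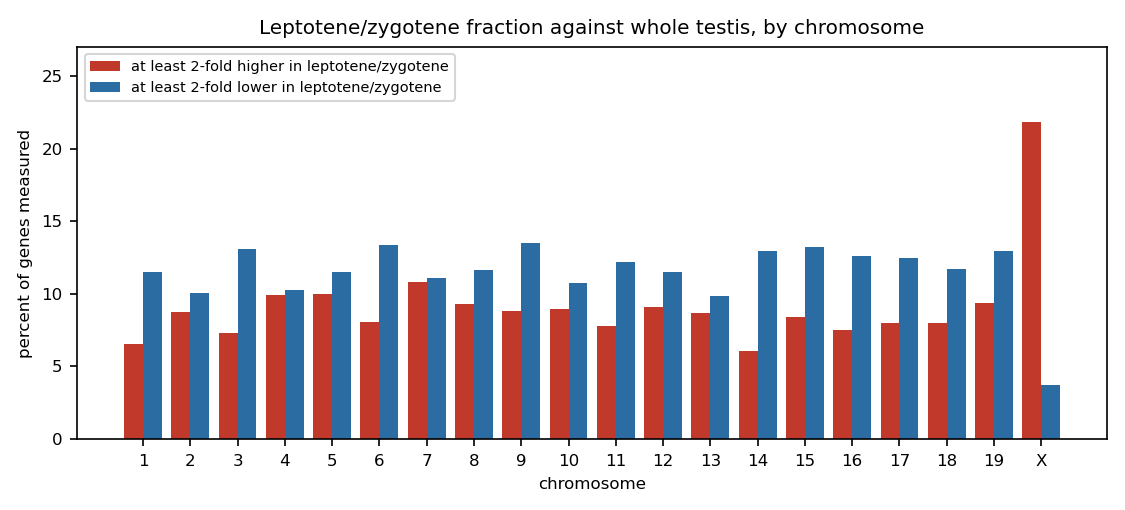
Percent of measured genes on each chromosome that were at least 2-fold higher or at least 2-fold lower in leptotene/zygotene than in whole testis. On the X chromosome 21.9% were higher and 3.75% lower, against 8.63% and 11.8% of autosomal genes.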

How the data were processed

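Total RNA was amplified to biotin-labelled cRNA and hybridised to arrays, per the labels' protocols, and the submitters' processing notes name GCOS 1. The authors deposited 1 linear intensity for each probe set; the sources used here do not give its scaling target or detection calls. Whether samples 1 and 2 of a group came from separate animals is not given either, so limma's p-values cannot be read as measuring spread between animals. For the shared probe sets they measure only the spread between these arrays. For genes on both designs that spread also holds the disagreement between different probe sets of a gene. Values set to the floor can make it smaller, as for Klf6 and Ttr.

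Each array was scaled to the mean of the 2% trimmed means of its design. The floor was, on the first design, the 90th percentile of 70 probe sets for chemosensory receptors and, on the second, the median of all probe sets, since only 14 receptor probe sets lie there and 20 were required. After scaling, 58.8% and 50.6% of probe sets were above it in leptotene/zygotene, against 60.3% and 52.2% in whole testis. Probe sets with a single gene (20380 and 14661 on the designs) were used, and those with several (691 and 245) or none (1555 and 7605) were left out. Where a gene had several probe sets, the one brightest on average over the arrays was read, on the first design where any was above the floor (11908 genes, against 6285 on the second). limma 3.58.1 was fitted to all 10 arrays, with the array design as a block for genes on both designs. Genes were named by size of difference (10 above the floor in both groups, 6 against a group at the floor, and those called by limma, leaving out unnamed clones and genes with an opposing probe set), besides list members. Members, lists and tests were chosen with earlier results of these data known. Calls and fits were tested on simulated data.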

Additional observations from a re-analysis of the deposited data

How the results depend on the processing

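Of the counts, the 4-fold higher one (165) was 109 with scaling to the shared probe sets, 104 with a floor at the 60th percentile, 88 with log2 of signal plus floor, 108 with the mean over probe sets and 90 on the second design only. The 4-fold lower one (574) was 307 on the first design only, 299 on the second only and 142 without genes 4-fold higher in pachytene than in leptotene/zygotene, a choice made after seeing the data. At 2-fold, the higher count (1246) was 1754 as deposited, 759 with the shared probe sets and 669 on the second design only, and the lower count (1597) was 1466 as deposited, 2156 with the shared probe sets, 948 and 797 on the single designs and 709 without those pachytene genes. Fewer genes are tested on a single design; the cause of the other changes was not tested. The share of calls that were higher was 22.3%, against 30.2% as deposited, 14.1% with the shared probe sets and 53.7% without the pachytene genes. Leaving out the pachytene genes selects on a low leptotene/zygotene signal, as a fall does. Its lower counts and its share are therefore partly set by the selection. Over genes measured above the floor in both groups the median was 0.07, against 0.18 for deposited values and -0.15 for scaling to the shared probe sets. Limma called 48 shared probe sets (39 higher), 50 (25 higher) with scaling to them, 21 with quantile normalization, 22 as deposited and 28 to 37 without 1 array. With the replicate number as a block it called 47. Over the shared probe sets, the deviations of same-numbered samples from their group means correlated at -0.02 to 0.57 over 10 pairs of groups. The number is also the array design, so these correlations cannot tell whether same-numbered samples are pairs. Of genes on both designs it called 4, and 7 with the shared probe sets, 0 without the block (27 at an unadjusted p under 0.05), 0 with only the 4 arrays compared (214) and 0 without any 1 array (95 to 154). Among named genes, Car3 was 0.34 on the second design only, and Clu (-0.14) was 0.07 with quantile normalization and 0.12 with the mean over probe sets. Medians near zero changed sign with the shared probe sets for the cohesin (-0.08), telomere (-0.17), junction (-0.11), endothelial (-0.13) and DNA methylation (-0.03) lists, with quantile normalization for the cohesin (-0.01) and matrix (0.01) lists, with a floor at the 60th percentile for the matrix (0.02) and junction (-0.06) lists, with the mean over probe sets for the matrix list (0.08) and on the first design only for the endothelial list (-0.03). On the second design only, the recombination median was 0.21, the telomere median -0.31, the segregation median 0.72 and the Sertoli median -0.17. The X minus autosome difference ran from 0.35 to 0.53.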

Other observations

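Some regulators outside the gene lists, chosen after their values were seen, also rose in leptotene/zygotene. Trim71, an RNA-binding ubiquitin ligase of stem cells, had a signal of 1409.5 in leptotene/zygotene and 122 in whole testis, with 794 in spermatogonia and 143 in pachytene. Pou4f1, a POU-domain factor best known from sensory neurons, had 323 in leptotene/zygotene and signals below the floor in whole testis, pachytene and the somatic mix. Sox4, a progenitor factor (3.26 on the log2 scale), Id2, an inhibitor of basic helix-loop-helix factors (2.94), and Hes1, a target of Notch signalling (at least 5.51-fold), rose as well. The long noncoding RNA Malat1 had 1286 in leptotene/zygotene and 125 in whole testis, and Actb, cytoplasmic actin, had 4864 in leptotene/zygotene and 791 in whole testis. Control probe sets for beta-actin differed less at the 3' end (1.47 and 1.66 on the 2 designs) and in the middle (1.71 and 1.87). All of these were under 4-fold. At the 5' end the controls differed by 2.19 and 2.73. The 3' to 5' ratios of the controls differed between the same arrays, and their part in these differences was not tested.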
